A study of Mus musculus with 14 samples.

Results

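Macrophage and myeloid marker genes were followed in bulk RNA-seq of whole mouse hearts. The set holds 32 listed genes, chosen by name as markers of these cells with earlier results of these data known. All 32 were found among the 42396 genes of both count tables. They comprise 5 markers of resident macrophages (Lyve1, Timd4, Folr2, Cd163 and Mrc1), 1 marker of cells recruited from blood (Ccr2) and 26 other myeloid or leukocyte genes. The question was whether resident and recruited markers differed in the same direction as the other myeloid genes in hearts labelled as lacking Atf3, a stress-induced transcription factor, or as depleted of it.

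The 14 hearts came from female mice, all given as FS6KD, that is, with a gene-trap knockdown of Ndufs6, a subunit of respiratory complex I, described as heart-dominant and kept on a mixed C57BL/6J and 129/Ola background. The knockout experiment compared 4 Atf3+/+FS6KD hearts with 4 Atf3-/-FS6KD hearts at 12 weeks, the Atf3 deletion having been made with CRISPR-Cas9 in fertilized eggs and so not being limited to muscle. The AAV experiment compared 3 hearts labelled MyoAAV2-shCtrl with 3 labelled MyoAAV2-shAtf3, collected 12 weeks after injection of newborn mice with a muscle-directed virus that carries a short hairpin RNA against Atf3 or a control hairpin. No heart without the Ndufs6 knockdown is compared here, so all values describe a heart with the complex I defect.

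Macrophages are the main immune cells of the resting heart. One population is seeded before birth, renews itself locally, clears dying cells and debris and carries Timd4, Lyve1 and Folr2 at its surface, whereas another is replaced from blood monocytes that enter through the chemokine receptor Ccr2. Both depend on signals through the Csf1 receptor and on the transcription factor PU.1, encoded by Spi1, which binds purine-rich DNA in front of many myeloid genes.

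Libraries of the knockout experiment held 33914931 to 134920825 counts, the deeper ones being replicates 3 and 4 of both groups, and those of the AAV experiment 30085432 to 40534913. The 32 genes together took 0.0549% to 0.0973% of all counts of a library, or 21281 to 89448 counts, so they report on a small share of the RNA of the heart. Ndufs6 was at 2.34 to 3.79 CPM (counts scaled to a common library size) in all 14 libraries. Atf3 was not lower in the groups labelled as lacking it. It was at 11.5 ± 9.54 CPM (SD, n = 4) in Atf3+/+FS6KD and 25.1 ± 9.64 CPM (SD, n = 4) in Atf3-/-FS6KD (log2 fold change 1.14 ± 0.49 SE, adjusted p 0.480 with edgeR), and at 12.5 ± 2.13 and 16.6 ± 4.52 CPM (SD, n = 3 each) under the shCtrl and shAtf3 labels (edgeR adjusted p 0.420). The first of these means rests on replicate 1 of Atf3+/+FS6KD, at 25.8 CPM and within the range of Atf3-/-FS6KD (14.3 to 37.6 CPM), while the other three were at 6.35 to 6.91 CPM. The knockout is described as a large deletion from exon 2 to exon 4, and a count over the whole gene does not separate reads that lie outside it, so this level does not check the knockout labels. For the AAV libraries, titles and column names name opposite groups. The titles are followed here, and every direction given for that experiment turns round if they are wrong.

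All 32 genes were detected in every library. Lyz2, the lysozyme of macrophages and other phagocytes, was the most abundant per length, at 119.8 ± 13.4 CPM per kilobase of exon (SD, n = 4) in Atf3+/+FS6KD. The subunits of the complement starter C1q followed, with C1qb at 42.9 ± 9.38, C1qa at 42.4 ± 7.18 and C1qc at 19.8 ± 3.39 on the same scale. C1qb and C1qa did not differ beyond their spread, and neither did C1qc and the next gene in the order, Tyrobp (18.6 ± 2.74). The resident markers lay in the middle and lower part of the order. Folr2 was at 5.44 ± 0.479, Lyve1 at 5.10 ± 0.786 and Mrc1 at 4.82 ± 0.297 CPM per kilobase, and these were within their spread of one another. Cd163 (2.32 ± 0.321) and Timd4 (1.04 ± 0.109) were lower, and Ccr2 was last of the 32 at 0.343 ± 0.0934, within its spread of Ptprc (0.361 ± 0.0514). Lyz2 has a near-identical copy, Lyz1, so its count may hold reads of both. Aif1 stands in 4 rows of the table with the same values in every library, so each row may hold only a share of its reads, and Pf4 and Laptm5 each have a second, nearly identical row.

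**Figure D1:**
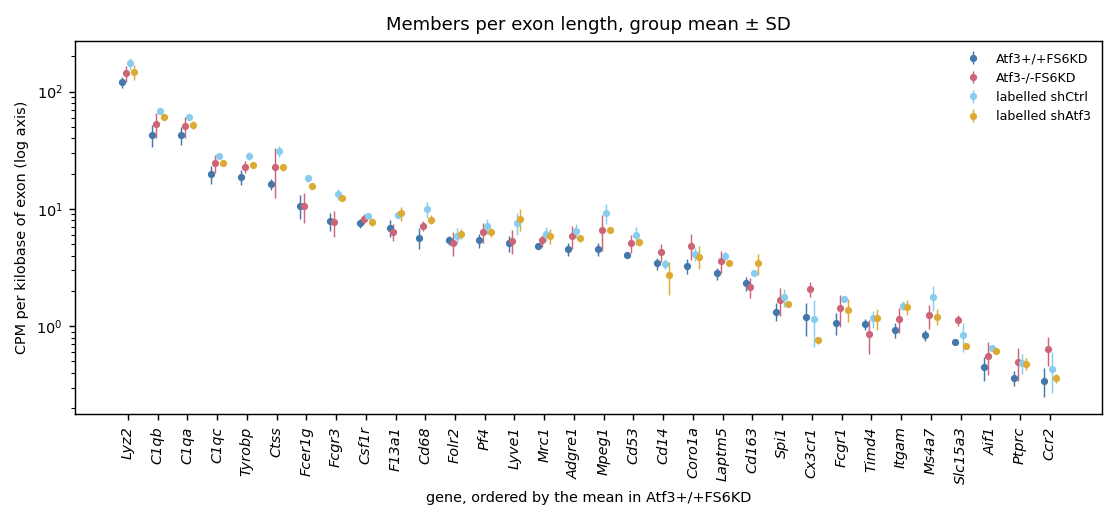
Level of each of the 32 genes in CPM per kilobase of exon (log axis), as group mean ± SD (n = 4 per knockout group, n = 3 per AAV group), ordered by the mean in Atf3+/+FS6KD. Lyz2 stands above all others and Ccr2 is last, and the 4 groups of a gene lie close together beside the range between genes.

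In the hearts labelled Atf3-/-FS6KD most of the 32 genes were higher than in Atf3+/+FS6KD, and in those labelled shAtf3 most were lower than in shCtrl. The knockout fold changes were positive for 27 genes (among them Fcer1g, at 0.00) and negative for 5, with a median log2 fold change of 0.32, beside 0.00 over all 15592 genes tested. In the AAV experiment 5 were positive and 27 negative, with a median of -0.20, again beside 0.00 over all 15225 genes tested. No gene of the set passed the adjusted threshold of 0.05 in either experiment with edgeR, where 0% of all genes tested passed in the knockout experiment and 0.539% in the AAV experiment. The smallest adjusted p of a member was 0.248 (Slc15a3) in the former and 0.0767 (Ctss) in the latter. DESeq2, a second count model, called 2 members in each: Slc15a3 (adjusted p 0.000576) and Cx3cr1 (0.0367) in the knockout experiment, with 1.34% of all genes called, and Ctss (0.00118) and Mpeg1 (0.0131) in the AAV experiment, with 2.02% of all genes called.

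At an unadjusted p below 0.05, 11 of the 32 genes were higher in Atf3-/-FS6KD, where 5.41% of all genes were, and none was lower. In the AAV hearts 12 were lower in the libraries labelled shAtf3, where 7.65% of all genes were, and none was higher. The groups did not overlap for 3 members in the knockout experiment, all higher (3.07% of all genes), and for 12 in the AAV experiment, all lower (9.95% of all genes). Ms4a7 was the 1 gene without overlap in both. Since the genes were chosen with earlier results of these data known, the shares over all genes describe these counts and do not test them. All 32 passed the filter on low counts in both experiments. Aif1 did so in the knockout experiment only through replicate 2 of Atf3-/-FS6KD (1.24 CPM). In the AAV experiment it passed only through shCtrl libraries (up to 1.03 CPM). In each case this was the group where it was higher, so its sign gives no support in either. The same holds for its place among the 12 without overlap and in later counts of signs. In bulk tissue, fewer cells of a type and less RNA per cell cannot be told apart. The p-values set a difference between groups against the spread between these hearts.

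**Figure D2:**
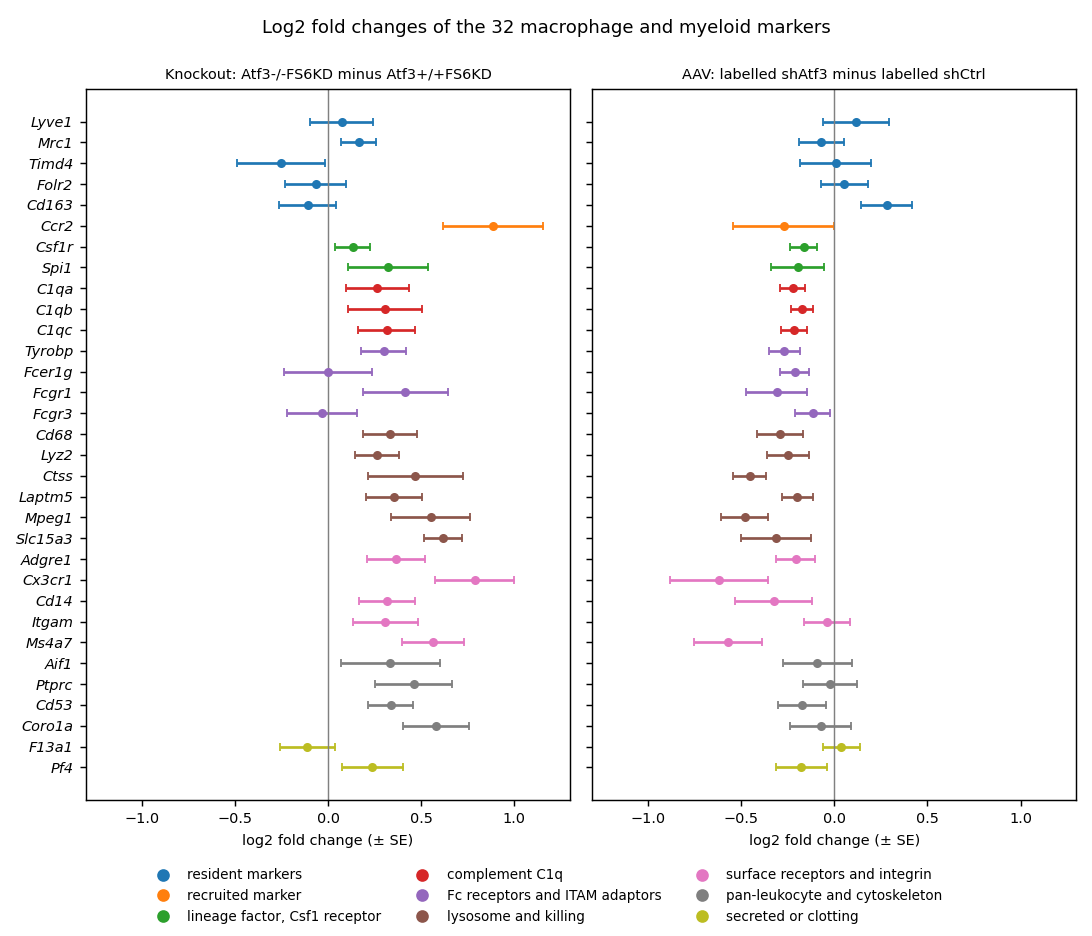
Log2 fold change ± SE of each gene from edgeR, by role, in the knockout experiment (left, Atf3-/-FS6KD minus Atf3+/+FS6KD) and in the AAV experiment (right, labelled shAtf3 minus labelled shCtrl). Most genes lie right of 0 on the left and left of 0 on the right, while the 5 resident markers scatter around 0 in both. No gene passed the adjusted threshold.

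The promoters of the set were read next, since most of its genes had fold changes of the same sign. RefSeq sequences (GRCm38.p6) of the 250 bases before the start site were at hand for 24 of the 32 genes, in 30 promoters. Csf1r, Slc15a3, Adgre1, Cd14, Tyrobp, Lyve1, Spi1 and C1qa had no entry. The PU.1 core GAGGAA was present on either strand in 14 of the 24 genes (15 of 30 promoters, 50%) and in 23.3% of all 32851 promoters. A longer core, AGGAAGT, which overlaps the first where both meet, was present in 9 of the 24 genes (10 of 30 promoters, 33.3%) and in 7.69% of all promoters. Of the 24 genes, 16 held either word and 7 held both. TGACTCA, the AP-1 word, was found in 2 genes (Cd68 and Folr2, 6.67% of the promoters beside 4.46% of all), and TGACGTCA, to which ATF and CREB factors bind, was found in none (1.55% of all promoters). Such matches describe letters, not binding. Stretches of 60 bases are shown for 4 genes that were higher in Atf3-/-FS6KD and lower in shAtf3, and for Folr2 as a resident marker with other directions. They run 5′ to 3′ along the strand of the gene, all before its start site, with the PU.1 words in capitals; ACTTCCT and TTCCTC are those words on the opposite strand.
C1qb: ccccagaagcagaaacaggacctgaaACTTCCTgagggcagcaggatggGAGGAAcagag
C1qc: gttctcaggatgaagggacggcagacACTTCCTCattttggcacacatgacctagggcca
Fcgr1: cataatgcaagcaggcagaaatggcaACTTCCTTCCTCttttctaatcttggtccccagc
Ctss: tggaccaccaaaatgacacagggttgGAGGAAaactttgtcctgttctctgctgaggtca
Folr2: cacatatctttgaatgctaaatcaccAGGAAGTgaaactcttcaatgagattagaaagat
The stretches lie at chr4:136886220-136886279 (minus strand) for C1qb, chr4:136893076-136893135 (minus strand) for C1qc, chr3:96293997-96294056 (minus strand) for Fcgr1, chr3:95526596-95526655 (plus strand) for Ctss and chr7:101857294-101857353 (minus strand) for Folr2. In C1qc and Fcgr1 both words overlap in 1 run, in C1qb they stand apart, Ctss holds the shorter word alone and Folr2 the longer word alone. Of the resident markers, Mrc1 held both words in its 250 bases and Folr2 the longer one.

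Spi1 and Csf1r set the identity and survival of macrophages. Spi1 (chr2:91082390-91115756, plus strand) was at 2.68, 3.72, 4.12 and 3.81 CPM in replicates 1 to 4 of Atf3+/+FS6KD and at 2.74, 5.44, 4.86 and 4.86 CPM in those of Atf3-/-FS6KD (log2 fold change 0.32 ± 0.21 SE, adjusted p 0.630 with edgeR). Replicate 1 was the lowest of its group in both genotypes, the other 3 of Atf3-/-FS6KD were above all of Atf3+/+FS6KD, and the groups overlapped. In the AAV experiment Spi1 was at 4.15, 4.39 and 5.72 CPM with the shCtrl label and 4.12, 4.20 and 4.11 CPM with the shAtf3 label (log2 fold change -0.20 ± 0.14 SE, adjusted p 0.614 with edgeR). One library labelled shCtrl stood above the rest and the groups overlapped. Csf1r, the receptor for Csf1 and Il34, was at 37.5, 45.0, 46.3 and 44.9 CPM in Atf3+/+FS6KD and 41.3, 52.9, 45.9 and 50.3 CPM in Atf3-/-FS6KD (log2 fold change 0.13 ± 0.09 SE, adjusted p 0.654 with edgeR), with overlap. Its levels were 50.4, 48.4 and 51.9 CPM in shCtrl and 47.8, 40.8 and 45.8 CPM in shAtf3 (log2 fold change -0.17 ± 0.07 SE, adjusted p 0.391 with edgeR), where all of the former were above all of the latter by a narrow margin. Neither gene passed the adjusted threshold in either experiment.

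The resident markers showed no common direction. Of 5, 2 were higher and 3 lower in Atf3-/-FS6KD (median log2 fold change -0.07), whereas under shAtf3 4 had a positive and 1 a negative fold change (median 0.05), Timd4 being at -0.03 with scaling by library size alone. Of the 26 others, 24 were higher (Fcer1g, at 0.00, counted among them) and 2 lower in the former (median 0.33), and 1 was higher and 25 lower in the latter (median -0.21). No resident marker had an unadjusted p below 0.05 or groups without overlap in either experiment. Of all genes, 5.41% were higher at that level in the knockout experiment and 3.07% higher without overlap. In the AAV experiment 7.65% and 9.95% were lower. At such shares 5 genes are too few for this absence to set them apart.

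Timd4, a receptor for phosphatidylserine on dying cells, was at 2.15, 2.59, 2.26 and 2.03 CPM in Atf3+/+FS6KD and 0.990, 2.10, 2.05 and 2.30 CPM in Atf3-/-FS6KD (log2 fold change -0.25 ± 0.24 SE, adjusted p 0.739 with edgeR). Replicate 1 of Atf3-/-FS6KD held less than any other library, at under 1 CPM, and the other 3 lay within the range of the controls. Leaving that library out gave -0.06. Folr2, the folate receptor beta, was at 7.98, 9.45, 8.43 and 7.80 CPM and 5.39, 8.81, 8.01 and 9.72 CPM in the same groups (log2 fold change -0.07 ± 0.17 SE, adjusted p 0.915 with edgeR). Again replicate 1 of Atf3-/-FS6KD was lowest of the 8, whereas replicate 4 was highest, and without replicate 1 the value was 0.08. Cd163, the scavenger receptor for haptoglobin-bound haemoglobin, was at 10.3, 14.3, 13.6 and 12.3 CPM in Atf3+/+FS6KD and 8.61, 13.7, 12.7 and 11.8 CPM in Atf3-/-FS6KD (log2 fold change -0.11 ± 0.15 SE, adjusted p 0.830 with edgeR), with the same library lowest and a value of 0.01 without it. All 3 overlapped between genotypes, and their negative direction rested on that library for Folr2 and Cd163.

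Lyve1, a hyaluronan receptor of perivascular macrophages that lymphatic endothelium also makes, was at 15.04, 14.96, 17.6 and 12.0 CPM in Atf3+/+FS6KD and at 11.4, 14.6, 19.8 and 16.6 CPM in Atf3-/-FS6KD (log2 fold change 0.07 ± 0.17 SE, adjusted p 0.909 with edgeR). Mrc1, the mannose receptor, was at 27.9, 31.3, 31.6 and 31.9 CPM and 28.8, 38.0, 37.0 and 33.6 CPM (log2 fold change 0.16 ± 0.09 SE, adjusted p 0.579 with edgeR). Replicate 1 of Atf3-/-FS6KD was the lowest of the 8 libraries for Lyve1 and the lowest of its group for Mrc1, and both genes overlapped between genotypes. The direction of Lyve1 was not stable, at -0.07 without replicate 3 of Atf3-/-FS6KD, -0.02 without replicate 4 of Atf3+/+FS6KD and -0.20 within replicates 1 and 2. Across the 5 markers, replicate 1 of Atf3-/-FS6KD was lowest of the 8 libraries for 4.

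With AAV, Cd163 had the largest fold change among them, at 15.6, 15.3 and 15.3 CPM with the shCtrl label and 14.4, 22.0 and 19.9 CPM with the shAtf3 label (log2 fold change 0.28 ± 0.14 SE, adjusted p 0.436 with edgeR). The 3 shCtrl libraries were nearly alike, 2 of the shAtf3 libraries were above and 1 below them. Lyve1 was at 20.6, 27.3 and 18.3 CPM and 18.5, 28.4 and 25.1 CPM (log2 fold change 0.12 ± 0.18 SE, adjusted p 0.839 with edgeR), and Mrc1 was at 45.1, 36.5 and 36.2 CPM and 31.8, 42.7 and 37.9 CPM (log2 fold change -0.07 ± 0.12 SE, adjusted p 0.864 with edgeR). Both spread as widely within a group as between groups. Folr2 was at 8.26, 8.36 and 10.8 CPM in shCtrl and 8.50, 10.03 and 9.92 CPM in shAtf3 (log2 fold change 0.05 ± 0.13 SE, adjusted p 0.904 with edgeR). Timd4, at 2.17, 2.99 and 2.43 CPM and 2.02, 3.04 and 2.58 CPM, was the closest to 0 (log2 fold change 0.01 ± 0.19 SE, adjusted p 0.994 with edgeR). Replicate 2 labelled shAtf3 was highest of the 6 libraries for 3 of the 5 markers while it was lowest of the 6 for 13 of all 32 genes. Without it, 2 rather than 5 of the 32 genes were positive.

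**Figure D3:**
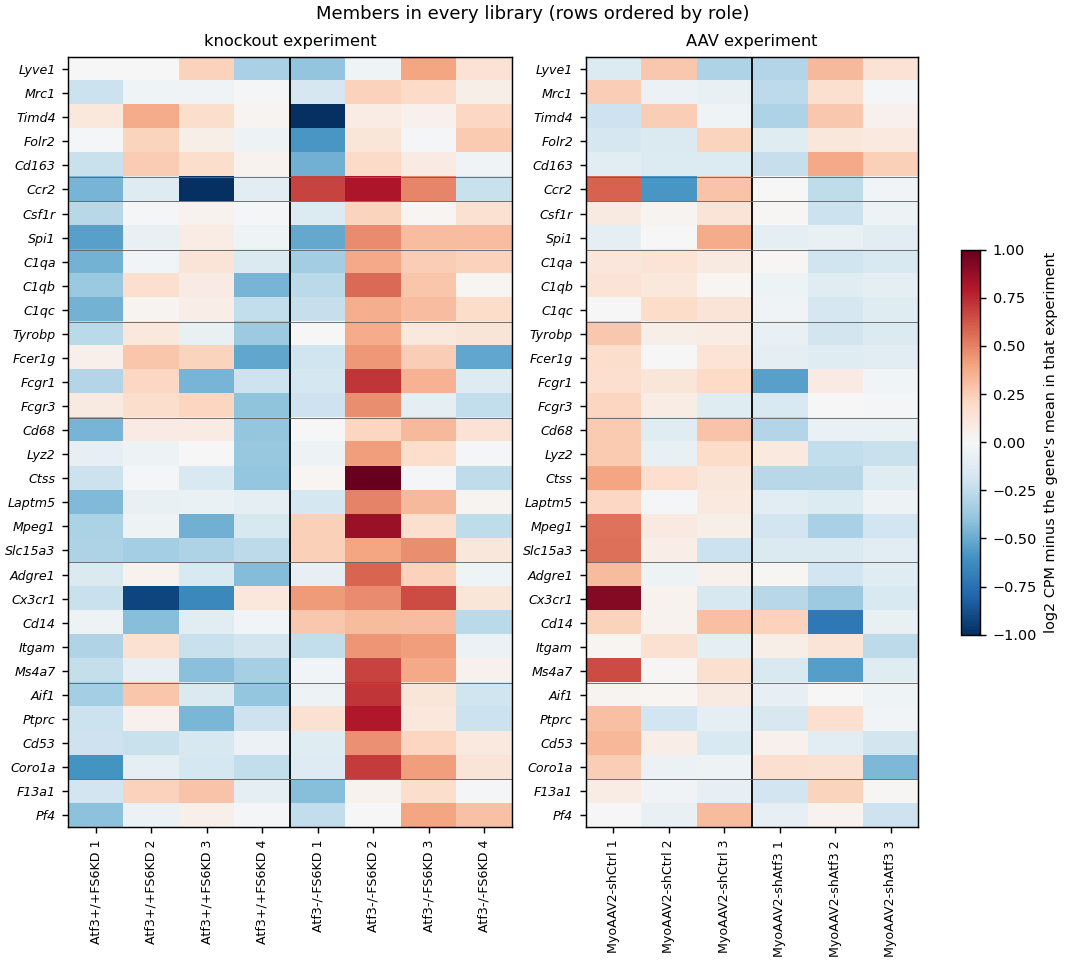
Log2 CPM of each gene in each library, minus the mean of that gene over the libraries of its experiment (colour scale, log2 units, limited to -1 and 1), with genes as rows ordered by role and libraries as columns. Replicate 2 of Atf3-/-FS6KD is the highest of its experiment for 23 of 32 genes, replicate 1 of Atf3-/-FS6KD is pale or blue across the 5 resident markers at the top, and replicate 1 labelled shCtrl is the highest of its experiment for 17 genes.

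Several fold changes of members, none of them called with edgeR, shrank by more than 1.5 times when 1 library was left out. Without replicate 2 of Atf3-/-FS6KD, the knockout values were 0.15 for C1qb, 0.16 for Lyz2, 0.21 for Adgre1, 0.22 for Fcgr1 and 0.23 for Ptprc. Without replicate 1 of Atf3+/+FS6KD they were 0.07 for Csf1r, 0.16 for C1qa and 0.21 for Spi1, and without replicate 3 of Atf3-/-FS6KD 0.14 for Pf4. The AAV values were -0.09 for Adgre1, -0.04 for Cd53, -0.03 for Fcgr3 and -0.35 for Ms4a7 without replicate 1 labelled shCtrl, and -0.04 for Spi1 and -0.05 for Pf4 without replicate 3 of that group. They were -0.14 for Fcgr1 without replicate 1 labelled shAtf3, and -0.09 for Csf1r, -0.09 for Cd14 and 0.16 for Cd163 without replicate 2 of it.

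Ccr2, the receptor through which monocytes follow Ccl2 and related chemokines, had the greatest positive fold change of the set in the knockout experiment. It was at 2.20, 2.79, 1.47 and 2.82 CPM in replicates 1 to 4 of Atf3+/+FS6KD and at 4.89, 5.36, 4.29 and 2.61 CPM in those of Atf3-/-FS6KD. In 3 of 4 Atf3-/-FS6KD libraries it was above all controls, and replicate 4 lay among them, so the groups overlapped (log2 fold change 0.89 ± 0.27 SE, adjusted p 0.383 with edgeR). Leaving out any 1 library gave log2 fold changes between 0.70 and 1.07, and the value was 1.05 within replicates 1 and 2 and 0.68 within replicates 3 and 4. In the AAV experiment Ccr2 was at 3.92, 1.71 and 3.16 CPM in shCtrl and 2.58, 2.16 and 2.53 CPM in shAtf3 (log2 fold change -0.27 ± 0.27 SE, adjusted p 0.733 with edgeR). The 3 shCtrl libraries held both the highest and the lowest level of the 6, and the log2 fold change ran from -0.55 without replicate 2 labelled shCtrl to -0.00 without replicate 1.

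To set both kinds of marker against the rest within a library, the mean log2 CPM of the 26 other members was subtracted. For the resident markers this difference was -0.04, -0.07, -0.02 and -0.09 across the Atf3+/+FS6KD libraries, against -0.69, -0.62, -0.37 and -0.11 across the Atf3-/-FS6KD libraries. All 4 of the latter were below all 4 of the former, replicate 4 by a narrow margin, and the means were -0.05 ± 0.03 and -0.45 ± 0.26 (SD, n = 4 each). The 26 others had a mean log2 CPM of 3.40 ± 0.12 in Atf3+/+FS6KD and 3.72 ± 0.26 in Atf3-/-FS6KD, and the resident markers 3.35 ± 0.12 and 3.28 ± 0.33, both with overlap between groups. The difference of group means was -0.39 over all 8 libraries, -0.60 within replicates 1 and 2, and -0.19 within the deeper replicates 3 and 4. It was -0.31 without replicate 1 and -0.34 without replicate 2 of Atf3-/-FS6KD, and -0.42 with Lyve1 left out of the resident markers.

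After AAV injection the same difference was -0.47, -0.14 and -0.29 with the shCtrl label against -0.30, 0.24 and 0.08 with the shAtf3 label. The groups overlapped, and the means differed by 0.30 (-0.30 ± 0.16 and 0.00 ± 0.28, SD, n = 3 each). The 26 others were lower in every shAtf3 library (3.95 ± 0.12 against 3.72 ± 0.02 mean log2 CPM), while the resident markers overlapped (3.65 ± 0.06 against 3.72 ± 0.25). Ccr2 minus the 26 others differed by 0.55 in the knockout experiment (-2.22 ± 0.45 to -1.66 ± 0.40) and by 0.04 in the AAV experiment (-2.45 ± 0.52 to -2.41 ± 0.12), with overlap in both. Without replicate 3 of Atf3+/+FS6KD the former was 0.33, and the latter turned to -0.26 without replicate 2 labelled shCtrl and was 0.22 without replicate 1. The AAV difference of the resident markers was 0.19 without replicate 2 and 0.46 without replicate 1 labelled shAtf3. No test was made of these scores, since their genes were chosen with results of these libraries known.

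**Figure D4:**
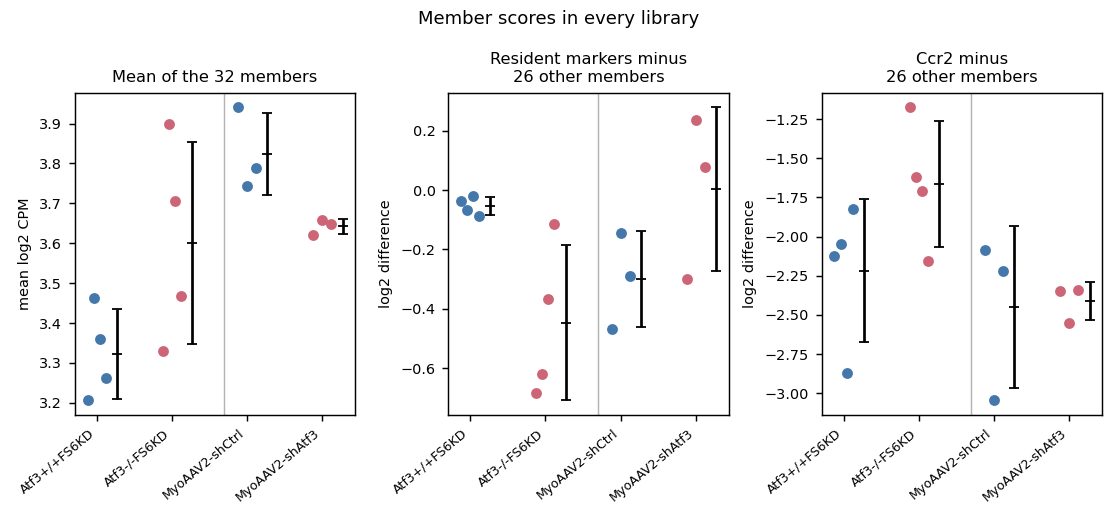
Mean log2 CPM of the 32 genes (left), resident markers minus the 26 other members (middle) and Ccr2 minus the 26 other members (right), both as log2 differences, with 1 point per library and the mean ± SD beside each group (n = 4 per knockout group, n = 3 per AAV group). The resident markers lie below the others in all 8 knockout libraries, at -0.09 to -0.02 in Atf3+/+FS6KD and -0.69 to -0.11 in Atf3-/-FS6KD, and Ccr2 overlaps between groups in both experiments.

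The 3 subunits of C1q, which starts the classical complement pathway and is made in tissues mainly by macrophages, had similar fold changes. Their log2 fold changes were 0.27, 0.31 and 0.32 for C1qa, C1qb and C1qc in the knockout experiment and -0.22, -0.17 and -0.22 in the AAV experiment. C1qa (chr4:136895917-136898803, minus strand) was at 34.4, 46.7, 52.1 and 43.0 CPM in Atf3+/+FS6KD and 37.3, 61.9, 56.5 and 55.9 CPM in Atf3-/-FS6KD (log2 fold change 0.27 ± 0.17 SE, adjusted p 0.618 with edgeR). Replicate 1 was the lowest of both groups, and they overlapped. In the AAV experiment C1qa was at 63.5, 64.8 and 62.6 CPM in shCtrl and 59.3, 51.2 and 52.8 CPM in shAtf3 (log2 fold change -0.22 ± 0.07 SE, adjusted p 0.234 with edgeR). All 3 subunits were lower in every library labelled shAtf3 than in any labelled shCtrl, as were 9.95% of all genes. Their adjusted p with edgeR were 0.234, 0.270 and 0.248.

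Tyrobp and Fcer1g encode the adaptors through which receptors such as Trem2 and the Fc receptors signal, and Fcgr1 and Fcgr3 encode receptors for antibodies. Tyrobp (chr7:30413760-30417585, plus strand) was at 11.3, 14.7, 13.01 and 10.6 CPM in Atf3+/+FS6KD and 13.6, 17.7, 14.8 and 14.9 CPM in Atf3-/-FS6KD (log2 fold change 0.30 ± 0.12 SE, adjusted p 0.459 with edgeR). In hearts given AAV, it was at 20.8, 18.0 and 18.2 CPM in shCtrl and 16.4, 15.2 and 15.7 CPM in shAtf3 (log2 fold change -0.27 ± 0.08 SE, adjusted p 0.235 with edgeR). The genotypes overlapped, since replicate 1 of Atf3-/-FS6KD lay below replicate 2 of Atf3+/+FS6KD, whereas the AAV groups did not overlap. The adaptor Fcer1g, in contrast, was at 9.30 ± 2.11 and 9.29 ± 2.69 CPM (SD, n = 4 each) in the genotypes, a log2 fold change of 0.00, while it was lower in every library labelled shAtf3 (log2 fold change -0.21 ± 0.08 SE, adjusted p 0.310 with edgeR). Fcgr3 was at -0.03 in the knockout and -0.12 in the AAV experiment, negative in both by the titles of the AAV libraries and positive in the AAV experiment by the column names, and at 0.03 in the knockout experiment with scaling by library size alone, and its reads may be shared with the closely related Fcgr2b. Fcgr1, the high-affinity receptor, was at 0.41 (adjusted p 0.575) and -0.31 (0.471).

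Of the 6 genes of the lysosome and of killing, all were higher in the knockout experiment, 4 of them at an unadjusted p below 0.05 (5.41% of all genes), and all were lower in the AAV experiment, 4 of them at that level (7.65% of all genes). Slc15a3 (chr19:10839727-10859362, plus strand), a lysosomal transporter of histidine and small peptides, was at 4.04, 3.94, 4.04 and 4.17 CPM in Atf3+/+FS6KD and 5.91, 6.59, 6.93 and 5.43 CPM in Atf3-/-FS6KD. The controls were nearly alike, every Atf3-/-FS6KD library was above them, and the gene had the smallest p of the set (log2 fold change 0.62 ± 0.10 SE, adjusted p 0.248 with edgeR). Its fold change was 0.65 within replicates 1 and 2 and 0.59 within replicates 3 and 4. In the AAV experiment Slc15a3 was at 5.99, 4.27 and 3.50 CPM and 3.67, 3.69 and 3.76 CPM (log2 fold change -0.31 ± 0.19 SE, adjusted p 0.533 with edgeR). There the difference lay mainly in replicate 1 labelled shCtrl, without which it was -0.07 (-0.47 without replicate 3 of that label), and the groups overlapped.

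Ctss (chr3:95526786-95556403, plus strand), the cathepsin that trims the invariant chain for antigen presentation, was at 21.6, 24.9, 22.6 and 19.2 CPM in Atf3+/+FS6KD and 25.4, 51.2, 24.7 and 21.0 CPM in Atf3-/-FS6KD (log2 fold change 0.47 ± 0.26 SE, adjusted p 0.570 with edgeR). The value rested on replicate 2 of Atf3-/-FS6KD, which held more than all others, and without it the log2 fold change was 0.11. Within replicates 1 and 2 it was 0.73, and within the deeper replicates 3 and 4 it was 0.13. Among the AAV libraries Ctss was at 47.1, 40.1 and 38.7 CPM in shCtrl and 29.5, 29.5 and 32.9 CPM in shAtf3 (log2 fold change -0.45 ± 0.09 SE, adjusted p 0.0767 with edgeR). Here no library decided the direction, the groups stood apart, and leaving out 1 library gave -0.51 to -0.36. Its adjusted p was 0.0244 without replicate 3 labelled shCtrl.

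Mpeg1 (chr19:12460779-12465283, plus strand), the pore-forming protein perforin-2, was at 18.6, 22.4, 16.6 and 20.8 CPM in Atf3+/+FS6KD and 27.3, 42.2, 25.9 and 19.4 CPM in Atf3-/-FS6KD (log2 fold change 0.55 ± 0.21 SE, adjusted p 0.438 with edgeR). Replicate 2 of Atf3-/-FS6KD was highest and the genotypes overlapped, with a log2 fold change of 0.31 without that library, 0.77 within replicates 1 and 2 and 0.28 within replicates 3 and 4. With AAV, it was at 49.1, 35.9 and 35.0 CPM in shCtrl and 29.6, 26.8 and 29.5 CPM in shAtf3 (log2 fold change -0.48 ± 0.13 SE, adjusted p 0.172 with edgeR). Every shCtrl library was above every shAtf3 library, replicate 1 most, and the value was -0.31 without that library. Cd68, Lyz2 and Laptm5, a lysosomal mucin-like protein, lysozyme and a lysosomal membrane protein of blood cells, were at 0.33, 0.26 and 0.35 in the knockout experiment and -0.29, -0.25 and -0.20 in the AAV experiment, with adjusted p of 0.363 or more.

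Cx3cr1 (chr9:119901616-120069879, minus strand), the fractalkine receptor of patrolling monocytes and many tissue macrophages, was at 5.94, 3.66, 4.44 and 7.47 CPM in Atf3+/+FS6KD and 9.33, 9.64, 10.9 and 7.57 CPM in Atf3-/-FS6KD (log2 fold change 0.79 ± 0.21 SE, adjusted p 0.331 with edgeR). Its groups stood just apart, replicate 4 of Atf3-/-FS6KD being close to replicate 4 of Atf3+/+FS6KD, and the fold change was 0.98 within replicates 1 and 2 and 0.63 within replicates 3 and 4. For the AAV groups, Cx3cr1 was at 7.79, 4.21 and 3.66 CPM in shCtrl and 3.38, 3.17 and 3.67 CPM in shAtf3 (log2 fold change -0.62 ± 0.26 SE, adjusted p 0.375 with edgeR). One shCtrl library, replicate 1, held most of that difference, which was -0.21 without it, and the groups overlapped.

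Ms4a7 (chr19:11321039-11336146, minus strand), a membrane-spanning protein of macrophages, was at 3.80, 4.25, 3.36 and 3.56 CPM in Atf3+/+FS6KD and 4.41, 7.17, 5.84 and 4.62 CPM in Atf3-/-FS6KD (log2 fold change 0.56 ± 0.17 SE, adjusted p 0.368 with edgeR). In hearts given AAV, it was at 10.1, 6.50 and 7.21 CPM in shCtrl and 5.78, 4.39 and 5.91 CPM in shAtf3 (log2 fold change -0.57 ± 0.18 SE, adjusted p 0.249 with edgeR). All libraries labelled Atf3-/-FS6KD were above their controls and all labelled shAtf3 below theirs, and the knockout value was 0.53 within replicates 1 and 2 and 0.60 within replicates 3 and 4. Adgre1 (F4/80), Cd14, the co-receptor for lipopolysaccharide, and Itgam (CD11b) were at 0.37, 0.32 and 0.31 in the knockout experiment, and at -0.21, -0.33 and -0.04 in the AAV experiment, with overlap throughout.

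**Figure D5:**
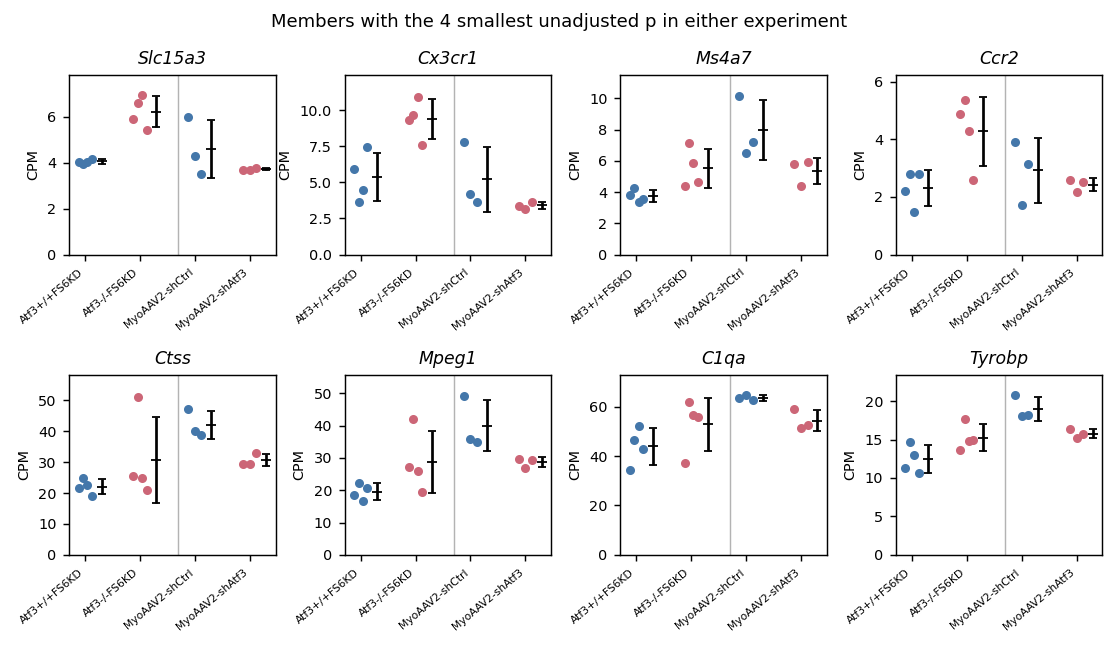
CPM of the 4 members with the smallest unadjusted p in the knockout experiment (top) and the 4 with the smallest in the AAV experiment (bottom), with 1 point per library and the mean ± SD beside each group (n = 4 and n = 3). Slc15a3, Cx3cr1 and Ms4a7 do not overlap between the genotypes, and Ms4a7, Ctss, Mpeg1, C1qa and Tyrobp do not overlap between the AAV groups.

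Genes expressed in many leukocytes, and the macrophage gene Aif1, come next. Coro1a, an actin regulator, was at 0.58 (SE 0.18, adjusted p 0.389) in the knockout and -0.07 in the AAV experiment. Ptprc, the pan-leukocyte antigen CD45, was at 0.46 (adjusted p 0.501) and -0.02 (0.966), the tetraspanin Cd53 at 0.34 and -0.18, and Aif1 (Iba1, an actin-binding protein) at 0.34 and -0.09. Of the 2 secreted products, F13a1, the catalytic subunit of clotting factor XIII, was at -0.11 and 0.04, whereas the chemokine Pf4 was at 0.24 and -0.18. With F13a1, 4 members were lower in Atf3-/-FS6KD and higher in shAtf3, the other three being Timd4, Folr2 and Cd163, whereas 25 showed the opposite pair of signs. The remaining members were Lyve1, positive in both, Fcgr3, negative in both, and Fcer1g, at 0.00 in the knockout experiment. If the AAV column names were right instead of the titles, the 25 would be higher in both experiments and the 4 lower in both. The values of F13a1 depended on single libraries: its knockout value was -0.00 without replicate 1 of Atf3-/-FS6KD and -0.19 without replicate 3, and its AAV value was -0.06 without replicate 2 labelled shAtf3. With scaling by library size alone, F13a1 was at -0.001 and Timd4 at -0.03 in the AAV experiment. F13a1 and Pf4 are also made by platelets, of whose 4 markers 1 passed the filter, at a summed 0.522 to 1.13 CPM in the knockout libraries.

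The difference between the experiments was tested directly in a fit of all 14 libraries, as the knockout fold change minus the AAV fold change. It was positive for 27 members and negative for 5, with a median of 0.51, beside 0.00 over the 15708 genes tested. None passed the adjusted threshold with edgeR (0.166% of all genes did), and 18 were positive at an unadjusted p below 0.05, where 9.43% of all genes were. The smallest adjusted p belonged to Slc15a3, with a difference of 0.92 (SE 0.21, adjusted p 0.0848). Ms4a7 followed with 1.13 (SE 0.27, adjusted p 0.0877) and Cx3cr1 with 1.40 (SE 0.37, adjusted p 0.0968). Tyrobp was at 0.57 (SE 0.16, adjusted p 0.107) and Mpeg1 at 1.02 (SE 0.29, adjusted p 0.107), and DESeq2 called these 5 genes, with 4.27% of all genes called. These values rest on the titles of the AAV libraries. If the names of the AAV columns were right instead, the difference would be positive for 24 members, with a median of 0.10. No member would pass the adjusted threshold with edgeR (0 of all genes would) or an unadjusted p below 0.05. At the latter level 1.97% of all genes would be positive (310, and 341 negative). Slc15a3 would be at 0.31, Ms4a7 at 0.00, Cx3cr1 at 0.17, Tyrobp at 0.03 and Mpeg1 at 0.07. By the titles, the difference of Slc15a3 had an adjusted p of 0.0438 without replicate 3 labelled shCtrl. For the resident markers the difference was negative in 4 of 5, from -0.40 (Cd163) to 0.23 (Mrc1), with adjusted p of 0.408 or more, and for Ccr2 it was 1.15 (SE 0.43, adjusted p 0.196). Leaving out 1 library gave -0.56 to -0.26 for Cd163 and 0.12 to 0.33 for Mrc1. With the column names taken as right, the difference would be negative in 2 of the 5 resident markers, Timd4 (-0.23) and Folr2 (-0.01), and positive in Lyve1 (0.20), Cd163 (0.18) and Mrc1 (0.10), with a median of 0.10, and Ccr2 would be at 0.62.

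Related genes outside the set were counted from lists chosen alongside it. Of 13 tested kinases and adaptors that signal in myeloid cells, 13 were higher in Atf3-/-FS6KD (median 0.32), 4 of them at an unadjusted p below 0.05 (5.41% of all genes), and 12 were lower in shAtf3 (median -0.23), 4 at that level (7.65% of all genes). Inpp5d, the lipid phosphatase SHIP1, had the smallest p in both (0.31, adjusted p 0.383, and -0.42, 0.168). Of 11 growth factors, chemokines and receptors that act on these cells, 11 were higher and 11 lower in the respective experiments (medians 0.36 and -0.28), 6 and 2 of them at an unadjusted p below 0.05. They include Ccl2, the ligand of Ccr2, at 0.96 and -0.62, Csf2rb2, a receptor subunit with the smallest p of this list in the knockout experiment (0.92, adjusted p 0.327, called by DESeq2 at 0.0337), and Tgfbr1, a receptor for transforming growth factor beta, with that of the list in the AAV experiment (-0.22, 0.374). Csf1 itself was at 0.03 and -0.29. Ccl2, Csf1 and Ly6c2 were picked after their values were seen, as was the knockout value of Lgals3.

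Among the lists of myeloid genes outside the set, the genes of lipid-laden and phagocytic macrophages were the only list with genes called by edgeR, 2 in the AAV experiment (0.539% of all genes). DESeq2 called 3 of this list in the knockout experiment (1.34% of all genes) and 5 in the AAV experiment (2.02%), and outside it Csf2rb2 in the former and Igf1, a growth factor, in the latter. Of 13, 10 were higher in Atf3-/-FS6KD (median 0.26) and 13 lower in shAtf3 (median -0.32). The 3 lower in Atf3-/-FS6KD were Lpl, Ctsd and Ctsb. Lpl was lower without overlap, at 5386 ± 177 against 4763 ± 276 CPM (SD, n = 4 each, log2 fold change -0.18, adjusted p 0.389 with edgeR). Most of the summed level of the list came from Lpl. That level was 8537 ± 258 and 7907 ± 245 CPM, with overlap, whereas the mean log2 CPM was 5.50 ± 0.08 and 5.93 ± 0.10, without. Lgals3, galectin-3, fell from 12.5 ± 3.23 to 5.41 ± 0.312 CPM (SD, n = 3 each) in the libraries labelled shAtf3 (log2 fold change -1.22 ± 0.18 SE, adjusted p 0.0299 with edgeR) and was at 1.15 in the knockout experiment (adjusted p 0.313). Itgb5, an integrin subunit that muscle and endothelium also make, fell as well (log2 fold change -0.47 ± 0.07 SE, adjusted p 0.0299 with edgeR). Spp1, osteopontin, had the smallest p of this list in the knockout experiment (log2 fold change 2.33 ± 0.28 SE, adjusted p 0.121 with edgeR), where DESeq2 called it (adjusted p 6.58e-12). Further resident genes were less uniform: of 12, 8 were higher in Atf3-/-FS6KD (median 0.10), 2 of them at an unadjusted p below 0.05 (5.41% of all genes), and 10 lower in shAtf3 (median -0.18), 6 at that level (7.65% of all genes) and 5 without overlap between groups (9.95% of all genes). Unlike for the 5 resident markers, the mean log2 CPM of the 12 did not overlap between the AAV groups, at 4.24 to 4.27 in shCtrl and 4.08 to 4.11 in shAtf3. The smallest p of the 12 was that of Clec10a, a lectin, in the knockout experiment (0.56, adjusted p 0.432) and that of Vsig4, a complement receptor, in the AAV experiment (-0.76, 0.159). Of monocyte genes, 6 of 8 were higher and 5 of 7 lower, but Itgax and Plac8 passed the filter in the knockout experiment only through Atf3-/-FS6KD libraries, and Itgax in the AAV experiment only through shCtrl libraries, so those counts give no support. The smallest p of the list belonged to Itgax (1.11, adjusted p 0.432) and Vcan (-0.60, 0.337). Ly6c2, the classical monocyte antigen, was at -0.05 and 0.02.

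Markers of other cell types also differed between the groups. All 5 fibroblast markers were higher in Atf3-/-FS6KD (median 0.27, summed level 1087 to 1359 against 1268 to 1711 CPM, with overlap, but mean log2 CPM 6.43 to 6.72 against 6.77 to 7.09, without) and all 5 lower in shAtf3 (median -0.38, 1307 to 1669 against 1064 to 1222 CPM), among them Col1a1, a collagen chain, which fell in the latter (log2 fold change -0.84 ± 0.11 SE, adjusted p 0.0293 with edgeR). Lymphatic endothelial markers, with which Lyve1 is shared, were higher in 5 of 5 in Atf3-/-FS6KD (median 0.35, summed 142 to 198 against 165 to 212 CPM, with overlap, but mean log2 CPM 3.86 to 4.15 against 4.17 to 4.56, without) and lower in 4 of 5 in shAtf3 (median -0.16, 141 to 159 against 148 to 158 CPM). On the same mean log2 scale the 32 members overlapped between the genotypes, at 3.21 to 3.46 against 3.33 to 3.90. Of the lymphatic markers, Prox1 was at 0.005 in the knockout experiment. It held most of their summed level, at 118.6 of 174.5 CPM (means in Atf3+/+FS6KD). In the AAV experiment 1 lymphatic marker was higher at an unadjusted p below 0.05 with edgeR (769 of all 15225 genes) and 1 without overlap (1287 of all genes). Cardiomyocyte markers were lower in 6 of 7 (median -0.15) and higher in 7 of 7 (median 0.13), and endothelial markers were higher in 5 of 5 (median 0.13) and 4 of 5 (median 0.03). Markers of T, B and NK cells were near the limit of detection: 2 of 9 passed the filter in the knockout experiment (Cd3e only through 1 Atf3-/-FS6KD library), at a summed 1.60 to 2.42 against 1.44 to 4.54 CPM, highest in replicate 2 of Atf3-/-FS6KD, and 1 of 9 in the AAV experiment. Of the neutrophil markers 3 of 6 passed in both (1.56 to 3.63 against 1.77 to 3.04 CPM in the knockout experiment), and Ly6g, which defines these cells, was at 0 in some libraries of each. Dendritic cell markers were higher in 3 of 4 (Ccr7 passing only through Atf3-/-FS6KD) and 2 of 3, mast cell markers in 3 of 3 and 0 of 2 (Mcpt4 passing only through shCtrl), and erythroid markers in 0 of 3 and 3 of 3, for the knockout and the AAV experiment in turn. The part of fibroblasts, lymphatic endothelium or lymphocytes in the values of the members was not tested.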

How the data were processed

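RNA was sequenced from whole hearts (8 in the knockout and 6 in the AAV experiment). The authors deposited 1 table of estimated counts per gene for each experiment, made with featureCounts 2.0.0 on GRCm38 p6 per the submitters' processing notes. From 19.4% to 24.4% of values were not whole numbers (as when shared reads are split between genes), so counts were rounded, although whole counts had been planned for. The aligner and strand setting are not given in the sources used here. Groups follow the sample titles, and 0 sample columns were left out.

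Genes above 1 CPM (count scaled to library size) in at least 1 library were scaled by TMM and tested in edgeR 4.0.16 (quasi-likelihood, R 4.3.3) within each experiment, with Benjamini-Hochberg adjustment over all genes tested and a threshold of 0.05. The difference between experiments was an interaction term over all 14 libraries. Log2 levels used a prior count of 2. Levels per kilobase used exon lengths of the GENCODE annotation. Alternatives were DESeq2 1.42.0, other scalings and filters, merged rows, a replicate block, leaving out each library, and splits by depth. The code was tested on simulated data. All members were described, with values in every library for Spi1, Csf1r, the resident markers, Ccr2 and the 4 members with the smallest unadjusted p in either experiment. For lists outside the set, the gene with the smallest p in each experiment was named. Members, lists and tests were chosen with earlier results of these data known.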

Additional observations from a re-analysis of the deposited data

Results flagged for a closer look

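Of 70 groups of 4 libraries examined, 6 held a library far from the other three, measured as its gap to the nearest one over the range of the group (Dixon criterion at the 95% level). Chance alone gives such a library in about 1 group in 20. In Atf3+/+FS6KD, replicate 1 stood apart as the lowest for Csf1r (37.5 CPM), Mrc1 (27.9 CPM) and Laptm5 (8.78 CPM). In the group labelled Atf3-/-FS6KD, replicate 1 was the lowest for Timd4 (0.990 CPM) and Spi1 (2.74 CPM), and replicate 4 for Cd14 (5.45 CPM). Groups of 3 were not examined. No member differed between the experiments past the adjusted threshold with edgeR as fitted in the report, whereas DESeq2 called 5 and scaling by library size alone called 2.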

How the results depend on the processing

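Calls depended on the model. With DESeq2, 2 members were called in the knockout experiment, 2 in the AAV experiment and 5 for the difference (208, 308 and 669 of all genes), and Fcer1g was at -0.005 in the knockout experiment. Without a filter on low counts, 2, 304 and 61 of all genes were called, among them 2 members in the AAV experiment. Without that filter and with filterByExpr, Fcer1g was at -0.003. Scaling by library size alone put the median of all genes at 0.06, -0.04 and 0.11 (0.00 in each before) and left 3 members positive in the AAV experiment. It put Fcgr3 at 0.033 in the knockout experiment, Timd4 at -0.031 and F13a1 at -0.001 in the AAV experiment and Lyve1 at 0.059 for the difference, where it called 205 genes, 2 of them members. Merging numbered rows gave 43 genes for the difference and put Fcer1g at 0 in the knockout experiment.

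Resident minus other markers was -0.596 within replicates 1 and 2, where Lyve1 was at -0.201, Fcer1g at -0.009 and Fcgr3 at 0.041, and -0.186 within replicates 3 and 4, where Timd4 was at 0.022 and Folr2 at 0.126 and 8 genes were called. Without replicates 1 and 2 of Atf3-/-FS6KD, a choice made after seeing the data, Folr2 was at 0.078, F13a1 at 0.012 and Fcer1g at -0.121. Same-numbered libraries deviated together only weakly (correlations from -0.001 to 0.152). The libraries numbered 1 in the knockout experiment (0.146) and 2 in the AAV experiment (0.152) were each other's best match. This check cannot decide whether the numbers pair libraries, and replicates 3 and 4 were the deeper ones in both knockout groups. With a replicate block no member was called, 20 genes were called in the AAV experiment in place of 82, and Fcer1g was at -0.015.

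Leaving out 1 library gave 0 to 15 called genes in the knockout experiment, 1 to 285 in the AAV experiment and 0 to 168 for the difference, with 0 to 0, 0 to 1 and 0 to 1 members, and 2 to 7 positive members in the AAV experiment. Signs turned in the knockout experiment for Lyve1 (-0.065 to 0.193), Folr2 (-0.179 to 0.075), Cd163 (-0.193 to 0.009), Fcer1g (-0.154 to 0.153) and Fcgr3 (-0.217 to 0.047). In the AAV experiment they turned for Lyve1 (-0.013 to 0.299), Mrc1 (-0.165 to 0.042), Timd4 (-0.133 to 0.155), Folr2 (-0.014 to 0.190), F13a1 (-0.062 to 0.135), Ptprc (-0.120 to 0.141), Itgam (-0.108 to 0.067) and Coro1a (-0.171 to 0.101), and for the difference for Lyve1 (-0.227 to 0.094), Folr2 (-0.263 to 0.019) and Fcgr3 (-0.101 to 0.159). The cause of these changes was not tested. In the knockout experiment Timd4 also turned within replicates 3 and 4 (0.022), and F13a1 without replicates 1 and 2 of Atf3-/-FS6KD (0.012). Members not named in this paragraph kept their sign in each comparison under every alternative run, the turned AAV labels aside.

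With the AAV labels turned, an alternative added after seeing the data, no gene was called for the difference (0 of all, 0 members) and its median over the members was 0.100. It was at -0.030 for Csf1r, 0.199 for Lyve1, 0.178 for Cd163, -0.207 for Fcer1g, -0.143 for Fcgr3, -0.012 for Cd14 and 0 for Ms4a7, each without the sign it had before.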
